A study of Homo sapiens with 16 samples.

Results

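The genes described here are 38 ATF4 and unfolded protein response genes, matched by symbol among the 61806 genes of the deposited table. They comprise 7 regulators, 10 amino acid and one-carbon enzymes, 4 genes of amino acid transport and tRNA export, 5 stress outputs, 9 ER chaperones and folding genes, and 3 genes of ER-associated degradation. Of these, 37 were among the 16029 genes with enough reads to be tested. NUPR1, a small stress-induced chromatin protein, was not: its level was between 0.0 and 0.13 FPKM in every library.

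The cells were LX-2, an immortalised human hepatic stellate cell line, and poly(A) RNA was sequenced. Fn14 is the receptor of the cytokine TWEAK and is encoded by TNFRSF12A. Going by its title, the study asked whether a splice isoform of Fn14 signals without TWEAK. There were 4 libraries in each of 4 groups: wild-type cells given 100 ng/mL TWEAK for 2 h, cells with a CRISPR/Cas9 knockout of the Fn14alpha isoform given PBS, cells with a knockout of total Fn14 given PBS, and wild-type cells given PBS (WT). The TWEAK and both knockout groups were set against the same WT libraries. The sources used here do not say if each knockout line grew from 1 clone, so genotype and cell line cannot be told apart.

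ATF4 is a transcription factor whose mRNA is translated more when eIF2alpha is phosphorylated by stress kinases, and its known targets include enzymes of serine, asparagine and one-carbon metabolism, amino acid carriers, and the stress genes DDIT3, TRIB3 and CHAC1. The unfolded protein response of the ER also runs through IRE1 with XBP1, and through ATF6, whose targets are mainly chaperones and degradation factors. In stellate cells, which secrete collagen, the ER folding machinery carries a heavy load. These are levels of mRNA per gene, so neither ATF4 protein nor the spliced form of XBP1 was measured.

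Sequence motifs tied to both arms occur before RefSeq starts of several members. The stretches below are shown because they mark which members carry the textbook element of each arm close to such a start. They come from RefSeq (build GRCh38.p14), read 5′ to 3′ on the strand of the gene, with the motif in capitals. The C/EBP-ATF response element, TGATGNAAN, was found on either strand within 250 bases before 4 of the 47 RefSeq starts of the 33 members with an entry, 1 start in each of 4 genes, and before 3.13% of all 35116 starts.
ASNS, chr7:97872456-97872488, minus strand: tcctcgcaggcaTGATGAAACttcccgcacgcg
CEBPG, chr19:33374059-33374091, plus strand: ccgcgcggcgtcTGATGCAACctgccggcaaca
CHAC1, chr15:40953249-40953281, plus strand, element on the other strand: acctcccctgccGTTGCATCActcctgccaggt
HERPUD1, chr16:56931953-56931985, plus strand, element on the other strand: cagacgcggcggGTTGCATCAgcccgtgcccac

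The ER stress response element was searched as CCAAT, then 9 bases of any kind, then CCACG, on either strand. It was found before 5 of the 47 starts, 1 in each of 5 genes, and before 0.074% of all starts. HSP90B1 holds it at 2 places, of which the second lies on the other strand.
HSPA5, chr9:125241379-125241421, minus strand: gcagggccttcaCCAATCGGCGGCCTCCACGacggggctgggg
HSP90B1, chr12:103930204-103930351, plus strand: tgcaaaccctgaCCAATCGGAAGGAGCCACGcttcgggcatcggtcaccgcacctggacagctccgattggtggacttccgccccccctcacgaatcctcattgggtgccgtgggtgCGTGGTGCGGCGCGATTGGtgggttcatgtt
PDIA6, chr2:10812841-10812883, minus strand: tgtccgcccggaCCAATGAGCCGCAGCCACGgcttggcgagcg
XBP1, chr22:28800591-28800633, minus strand: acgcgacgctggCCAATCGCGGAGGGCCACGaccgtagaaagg
CRELD2, chr22:49918542-49918584, plus strand, element on the other strand: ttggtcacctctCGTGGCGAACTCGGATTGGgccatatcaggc
A match is a string of letters and not a shown binding site. The RefSeq start need not be the first base of the gene as counted in the deposited table: against those bounds 6 of the 9 stretches lie inside the gene (ASNS, CEBPG, CHAC1, HSP90B1, CRELD2 and PDIA6), 2 lie across its start (HSPA5 and XBP1) and 1 lies before it (HERPUD1). The PDIA6 stretch is 25094 bases inside, before a RefSeq start within the gene. SLC7A11, PSPH, NUPR1, ALDH1L2 and SHMT2 had no entry.

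Library totals were between 13335919 and 16888606 counts. TNFRSF12A stood at 123.2 to 140.1 FPKM with TWEAK, 51.83 to 64.73 in Fn14alpha KO, 29.51 to 35.55 in Fn14 KO and 119.0 to 133.4 in WT. Of 10 stellate and mesenchymal markers, at least 9 averaged 1 FPKM or more in every group, while the 4 leukocyte markers all averaged under 1 FPKM. The exception was COL1A2, at 1.12 FPKM with TWEAK, 0.425 in Fn14alpha KO, 0.16 in Fn14 KO and 1.48 in WT. Levels of other stellate markers also differed between groups. In the same order VIM averaged 611.5, 258.5, 446.9 and 377.9 FPKM, and TAGLN 28.91, 43.16, 89.8 and 25.37 FPKM. Of 5 hepatocyte markers ALB, TTR, APOA1 and CYP3A4 were near or at 0, and SERPINA1 averaged 2.76 FPKM with TWEAK, 0.98 in Fn14alpha KO, 0.42 in Fn14 KO and 2.38 in WT. Of 4 endothelial markers TEK alone reached 1 FPKM, at 1.45 with TWEAK, 0.31 in Fn14alpha KO, 0.29 in Fn14 KO and 1.46 in WT. Of 4 cholangiocyte markers SOX9 averaged 4.18 FPKM with TWEAK, 5.24 in Fn14alpha KO, 11.02 in Fn14 KO and 4.2 in WT, KRT7 0.68 to 1.41 over the groups, and KRT19 and EPCAM under 1. Their part in the results was not tested. A pair of libraries stood apart from their groups, WT replicate 4 and Fn14 KO replicate 1. Median fold changes of whole chromosomes also differed from 0 in the knockouts: in Fn14 KO against WT the median log2 fold change was 0.45 on chromosome 22, 0.38 on 3, 0.30 on 20 and -0.21 on 2, and in Fn14alpha KO it was -0.47 on chromosome 12 and -0.26 on 9, against 0.03 and -0.00 over all such genes. For some members that touch these libraries or chromosomes, results are also given without them. For others only a range over the alternative fits is given, or the levels alone.

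In Fn14 KO cells, called amino acid and one-carbon enzymes were all higher than in WT, while called ER chaperones went both ways. Of the 37 members tested, 20 were higher and 9 lower than in WT (54.1% and 24.3%), against 26.6% and 26.3% of all genes tested. Among the 11487 genes of at least 2 log2 CPM the shares were 31.7% and 25.6%. The median log2 fold change of the members was 0.29, against -0.01 over all genes. Without the 2 libraries that stood apart, 18 were higher and 9 lower with a median of 0.17. These were 48.6% and 24.3%, against 27.3% and 27.6% of all genes in that fit. With the neighbouring-gene median removed, as explained with ATF4, the counts were 15 and 10 with a median of 0.15. These were 40.5% and 27.0%, against 18.9% and 23.9% of all genes. By role, the counts were 5 higher and 0 lower of 10 amino acid and one-carbon enzymes, 3 and 0 of 4 transport and tRNA export genes, 4 and 1 of 5 stress outputs, 3 and 5 of 9 chaperones, 2 and 1 of 3 degradation genes, and 3 and 2 of 6 regulators. Calls here and below are at an adjusted p under 0.05 in edgeR's quasi-likelihood test over all genes.

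In Fn14 KO against WT the median log2 fold change was 0.26 for the amino acid and one-carbon enzymes, 0.39 for transport and tRNA export and 0.87 for the stress outputs, but -0.20 for the chaperones. The enzyme median was 0.17 without the 2 libraries that stood apart, and the stress output median 0.54 with the neighbouring-gene median removed. In Fn14alpha KO against WT the median was -0.12 for the enzymes and 0.15 for the chaperones, and -0.0125 and 0.17 with the neighbouring-gene median removed. With TWEAK the medians were -0.06 and -0.06.

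**Figure D1:**
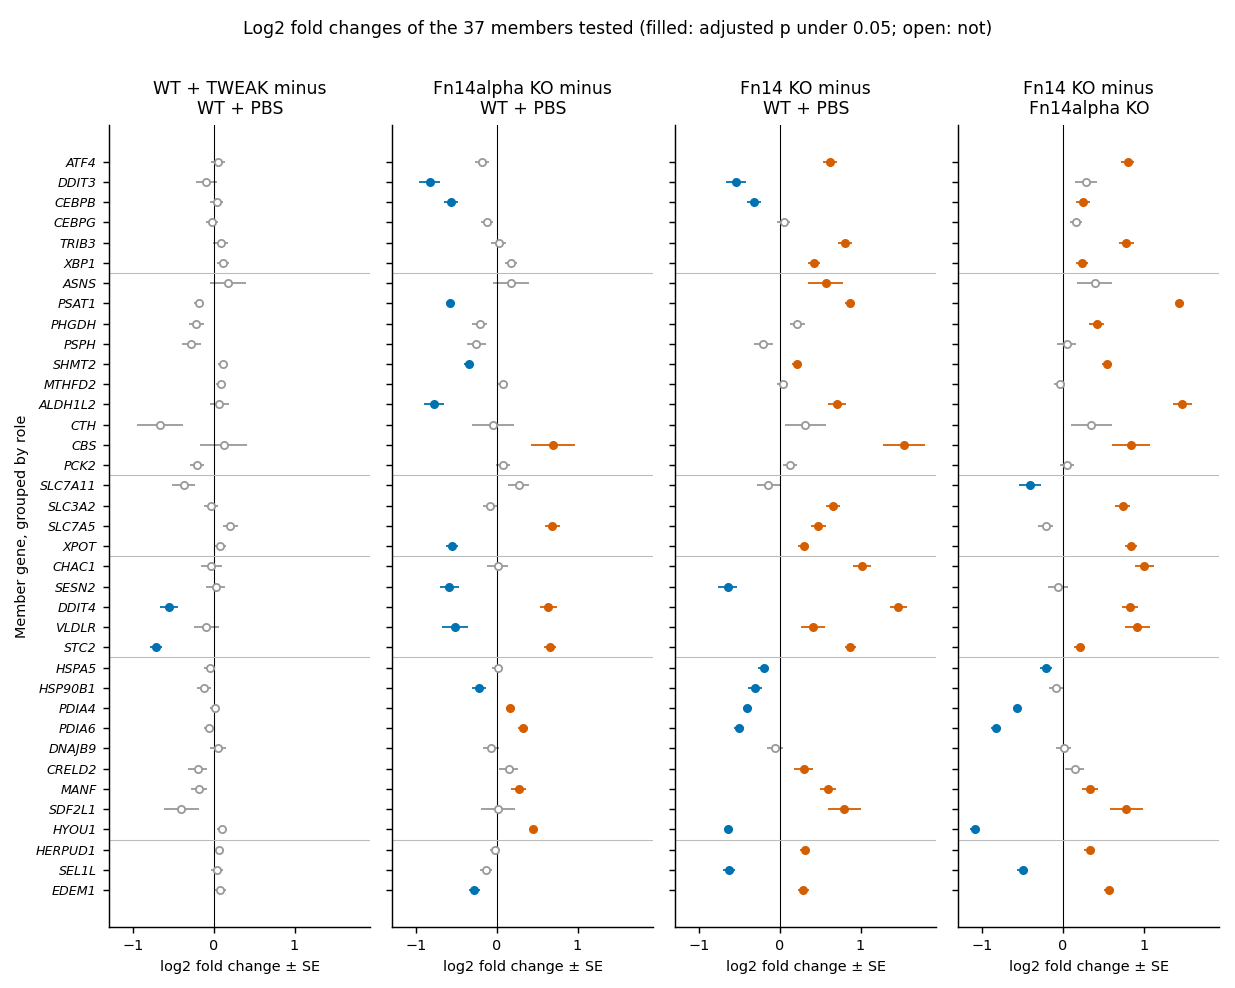
Log2 fold change with its standard error (x axis) for each of the 37 members tested (y axis, grouped by role, rules between roles), 1 panel per comparison. Filled orange points were called higher, filled blue points called lower, and open grey points did not pass. The TWEAK panel has 2 called members, both lower, and the Fn14 KO panel has 20 called higher and 9 lower.

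Per library, the mean log2 CPM of the 10 amino acid and one-carbon enzymes minus that of the 9 chaperones was -2.73, -2.54, -2.43 and -2.60 in Fn14 KO, -3.30, -3.24, -3.48 and -3.19 in Fn14alpha KO, -3.01, -3.22, -3.08 and -2.995 with TWEAK, and -2.94, -3.05, -3.06 and -3.18 in WT. The Fn14 KO libraries all lay above every other library. The Fn14alpha KO libraries all lay below WT, but the nearest were at -3.189 and -3.179, against a pooled SD within groups of 0.11. Each enzyme counts equally in the mean, also CBS, ASNS and CTH, which had 10 to 102 reads per library. Their log2 fold changes in Fn14 KO against WT were 1.54, 0.57 and 0.31. This is a description of chosen genes and was not tested. The 2 libraries that stood apart were both high on the chaperone axis: Fn14 KO replicate 1 had a chaperone mean of 7.68 log2 CPM, against 7.40 to 7.45 in the other Fn14 KO libraries, and WT replicate 4 had 7.71, against 7.47 to 7.49 in the other WT libraries.

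**Figure D2:**
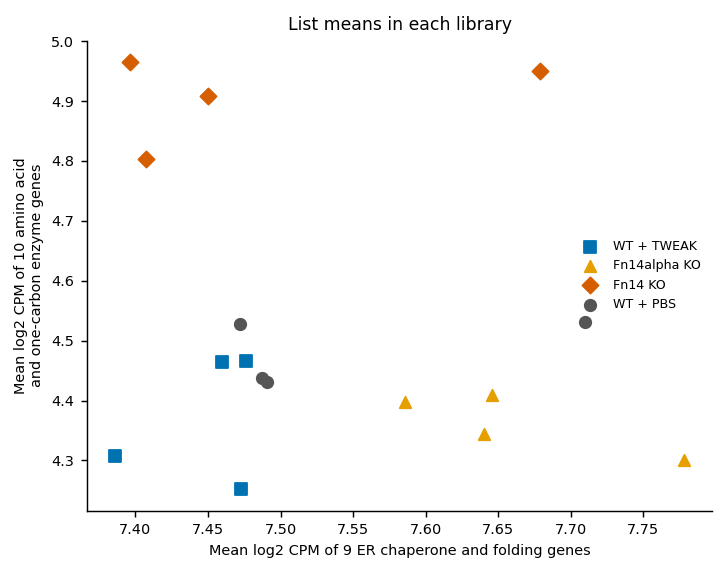
Mean log2 CPM of the 9 chaperone genes (x axis) against that of the 10 amino acid and one-carbon enzyme genes (y axis), 1 point per library, 4 libraries per group. Axes do not start at 0. Each gene counts equally in its mean, also CBS, ASNS and CTH with few reads. Fn14 KO libraries lie at 4.80 or above on the y axis, every other library at 4.53 or below.

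ATF4 itself (ENSG00000128272, chr22:39519695-39522683, plus strand; coordinates are the deposited table's, build GRCh38) was higher in Fn14 KO cells. Its level was 189.13, 154.5, 153.14 and 142.85 FPKM in Fn14 KO, 95.15, 103.43, 104.14 and 104.3 FPKM in Fn14alpha KO, 116.75, 113.38, 106.92 and 112.23 FPKM with TWEAK, and 104.22, 103.54, 112.22 and 131.44 FPKM in WT. Every Fn14 KO library was above every library of the other groups, and Fn14alpha KO overlapped WT. The log2 fold change was 0.62 ± 0.08 (SE) in Fn14 KO against WT, adjusted p = 1.07e-06, and 0.80 ± 0.08 against Fn14alpha KO, adjusted p = 1.62e-08. It was -0.18 ± 0.08 in Fn14alpha KO against WT (adjusted p = 0.0831, 95% interval -0.35 to -0.02) and 0.05 ± 0.08 with TWEAK (adjusted p = 0.779, interval -0.11 to 0.21). The Fn14 KO calls, against WT and against Fn14alpha KO, held under all 26 alternatives, at 0.21 to 0.71 and 0.45 to 0.86. These alternatives include fits without single libraries.

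ATF4 lies on chromosome 22, whose expressed genes were higher as a whole in Fn14 KO. When the running median of about 50 expressed genes on either side was taken off in each library (a limma-voom fit), the ATF4 difference shrank to 0.21 ± 0.08 in Fn14 KO against WT, adjusted p = 0.0413, and to 0.45 ± 0.08 against Fn14alpha KO, adjusted p = 8.01e-05. In Fn14alpha KO against WT it then passed, at -0.24 ± 0.08, adjusted p = 0.0266. The cause of the chromosome-wide medians was not tested.

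DDIT3 (ENSG00000175197, chr12:57516588-57521737, minus strand), the pro-apoptotic factor CHOP and a classic ATF4 target, was lower in both knockouts, also where ATF4 was higher. It stood at 12.19, 8.25, 9.83 and 8.69 FPKM in Fn14 KO, 7.6, 10.24, 8.58 and 8.97 FPKM in Fn14alpha KO, 14.82, 13.4, 12.75 and 14.46 FPKM with TWEAK, and 13.24, 14.68, 14.13 and 19.24 FPKM in WT. No knockout library reached the lowest WT library. DDIT3 had a log2 fold change of -0.54 ± 0.13 in Fn14 KO (adjusted p = 0.000991) and -0.83 ± 0.13 in Fn14alpha KO (adjusted p = 1.52e-05). With the neighbouring-gene median removed the Fn14alpha KO value was -0.37 ± 0.14, adjusted p = 0.0424, and the Fn14 KO value -0.56 ± 0.13, adjusted p = 0.00145. Between the knockouts the difference was 0.29 ± 0.14 (adjusted p = 0.0721, interval 0.02 to 0.55), and with TWEAK it was -0.09 ± 0.12 (adjusted p = 0.731). The difference between the knockouts passed under 5 of 26 alternatives, among them without WT replicate 4 (adjusted p = 0.039). It was -0.19 (adjusted p = 0.289) with the neighbouring-gene median removed. Both falls against WT were called under all 26 alternatives, at -0.67 to -0.41 in Fn14 KO and -0.91 to -0.37 in Fn14alpha KO.

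Partners of ATF4 among the members include CEBPB and CEBPG. CEBPB, a bZIP factor that pairs with ATF4, averaged 107.2 ± 19.4 FPKM in Fn14 KO, 100.1 ± 4.07 FPKM in Fn14alpha KO and 145.0 ± 5.19 FPKM in WT (SD, n = 4 each), a fall in both knockouts (log2 fold change -0.32 ± 0.09, adjusted p = 0.00298, and -0.57 ± 0.09, adjusted p = 9.41e-06). With its chromosome 20 neighbours removed both falls remained called (-0.24 ± 0.08, adjusted p = 0.0144, and -0.56 ± 0.08, adjusted p = 6.77e-06). Its difference between the knockouts, 0.25 ± 0.09 (adjusted p = 0.016), rested on Fn14 KO replicate 1 and was 0.12 without it (adjusted p = 0.113), and 0.32 with the neighbours removed (adjusted p = 0.00189). CEBPG, a dimerisation partner, averaged between 17.21 and 18.26 FPKM in all groups and was called in no comparison. With its chromosome 19 neighbours removed it was called lower in Fn14alpha KO than in WT (-0.26 ± 0.07, adjusted p = 0.00896) and higher in Fn14 KO than in Fn14alpha KO (0.41 ± 0.07, adjusted p = 8.45e-05).

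TRIB3, a pseudokinase induced by ATF4 and DDIT3, averaged 16.8 ± 1.499 FPKM in Fn14 KO, 10.79 ± 1.00 FPKM in Fn14alpha KO, 10.58 ± 1.12 FPKM with TWEAK and 10.38 ± 0.55 FPKM in WT. It rose in Fn14 KO by 0.81 ± 0.09 on the log2 scale, adjusted p = 3.56e-08. It lies on chromosome 20, and with the neighbouring-gene median removed the difference was 0.04, adjusted p = 0.735.

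XBP1 (ENSG00000100219, chr22:28794555-28800597, minus strand), the transcription factor that IRE1 activates by splicing, stood at 37.8, 31.96, 32.29 and 32.2 FPKM in Fn14 KO, 28.13, 34.39, 30.59 and 32.93 FPKM in Fn14alpha KO, 28.69, 28.09, 26.8 and 29.44 FPKM with TWEAK, and 25.52, 26.05, 28.08 and 28.99 FPKM in WT. All Fn14 KO libraries lay above WT, and Fn14alpha KO overlapped both. For XBP1 the log2 fold change was 0.42 ± 0.07 in Fn14 KO against WT (adjusted p = 4.25e-05) and 0.24 ± 0.07 against Fn14alpha KO (adjusted p = 0.00786), but -0.06 (adjusted p = 0.581) and -0.12 (adjusted p = 0.187) with the neighbouring-gene median removed. It was 0.18 ± 0.08 in Fn14alpha KO (adjusted p = 0.0552) and 0.11 ± 0.08 with TWEAK (adjusted p = 0.411), neither of which passed. The Fn14alpha KO value passed under 8 of 26 alternatives, among them without the 2 libraries that stood apart (0.22, adjusted p = 0.00565), without WT replicate 4 (adjusted p = 0.0279) and by DESeq2 (adjusted p = 0.049).

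**Figure D3:**
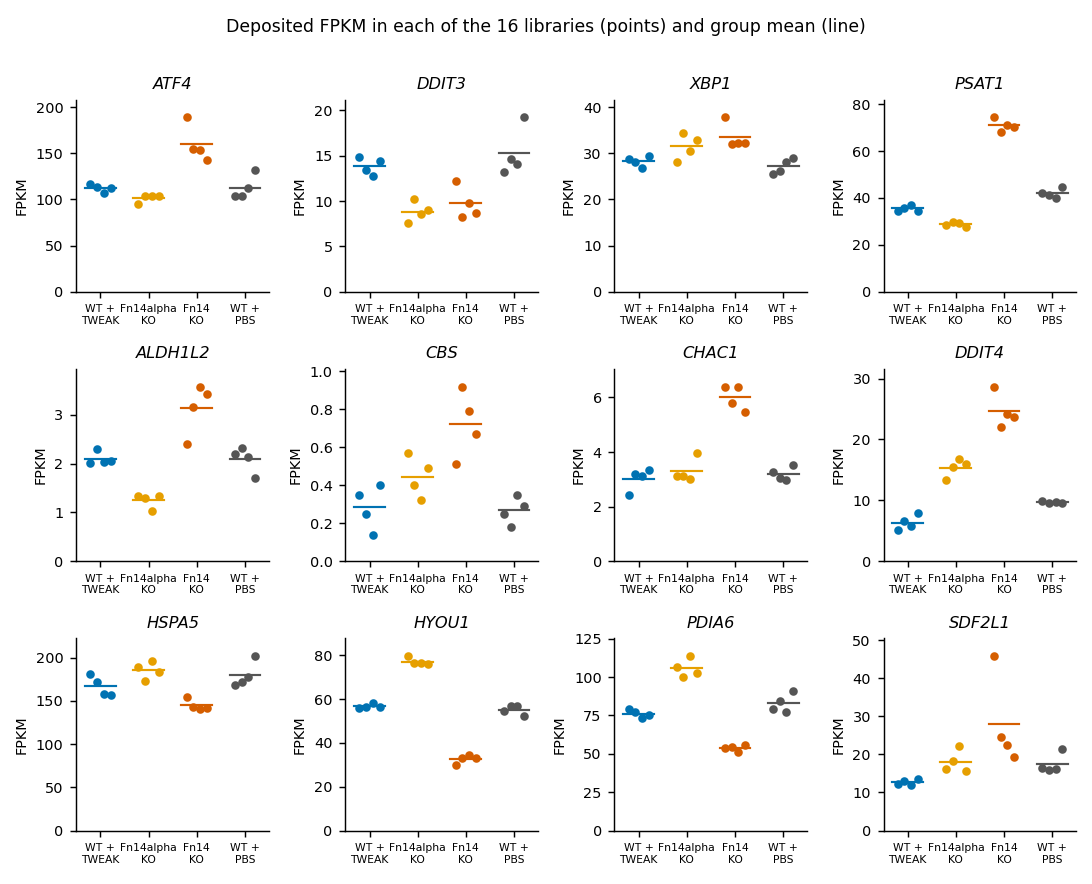
FPKM (y axes, starting at 0) of 12 members in each library, grouped on the x axis. Points are the 4 libraries of a group and the line their mean. PSAT1 and CHAC1 show the 4 Fn14 KO libraries above all others, and HYOU1 and PDIA6 show them below all others with Fn14alpha KO on top.

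Among the metabolic enzymes, PSAT1 had the smallest adjusted p between the knockouts. PSAT1 (ENSG00000135069, chr9:78297125-78330093, plus strand), the serine pathway's transaminase, stood at 74.42, 67.98, 71.06 and 70.17 FPKM in Fn14 KO, 28.59, 29.79, 29.52 and 27.7 FPKM in Fn14alpha KO, 34.43, 35.88, 37.13 and 34.64 FPKM with TWEAK, and 42.24, 41.23, 40.12 and 44.53 FPKM in WT. The 4 groups did not overlap. PSAT1 rose by 0.87 ± 0.06 in Fn14 KO (adjusted p = 9.82e-12) and fell by 0.57 ± 0.06 on the log2 scale in Fn14alpha KO (adjusted p = 4.21e-08), so that Fn14 KO stood 1.44 ± 0.06 above Fn14alpha KO (adjusted p = 1.07e-15). The calls held with the neighbouring-gene median removed, at 0.78 ± 0.06, -0.26 ± 0.07 and 1.04 ± 0.06 (adjusted p = 5.87e-10, 0.00346 and 6.21e-12). With TWEAK the value was -0.18 ± 0.06, adjusted p = 0.0634, and did not pass; it passed under 5 of 26 alternatives.

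The other enzymes of serine synthesis moved less. PHGDH, which catalyses the first step, averaged 19.49 ± 3.45 FPKM in Fn14 KO, 16.14 ± 1.49 FPKM in Fn14alpha KO, 15.1 ± 0.74 FPKM with TWEAK and 18.23 ± 1.06 FPKM in WT, and was called between the knockouts (0.42 ± 0.09, adjusted p = 0.00047). Fn14 KO replicate 1 was at 24.43 FPKM, against 16.5 to 18.98 in the other Fn14 KO libraries, which overlapped Fn14alpha KO (14.26 to 17.43). The call between the knockouts held under all 26 alternatives, at 0.25 to 0.50 with adjusted p up to 0.0298. Without the 2 libraries that stood apart PHGDH was also called lower in Fn14alpha KO than in WT (-0.17 ± 0.06, adjusted p = 0.0302). PSPH, the phosphatase of the last step, averaged 3.92 FPKM in Fn14 KO, 4.20 FPKM in Fn14alpha KO, 3.88 FPKM with TWEAK and 4.89 FPKM in WT, and was called in no comparison, but was lower in Fn14alpha KO than in WT with its neighbours removed (-0.29 ± 0.11, adjusted p = 0.0454). In Fn14 KO against WT the PSPH value was -0.20 (adjusted p = 0.147). It was called lower under 3 of 26 alternatives, library totals and both limma fits to FPKM (adjusted p down to 0.0214). In these fits the median over all genes was also negative.

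Of the mitochondrial one-carbon enzymes, ALDH1L2 (ENSG00000136010, chr12:105019784-105107643, minus strand), which oxidises formyl-tetrahydrofolate, was highest in Fn14 KO and lowest in Fn14alpha KO. It stood at 2.4, 3.16, 3.58 and 3.42 FPKM in Fn14 KO, 1.34, 1.29, 1.03 and 1.33 FPKM in Fn14alpha KO, 2.02, 2.31, 2.04 and 2.05 FPKM with TWEAK, and 2.19, 2.33, 2.13 and 1.71 FPKM in WT. Fn14 KO lay above WT in all libraries and Fn14alpha KO below, and TWEAK overlapped WT. ALDH1L2 had a log2 fold change of 0.70 ± 0.11 in Fn14 KO (adjusted p = 8.98e-06), -0.78 ± 0.12 in Fn14alpha KO (adjusted p = 1.21e-05) and 1.48 ± 0.12 between the knockouts (adjusted p = 1.37e-10). On chromosome 12 of Fn14alpha KO the neighbours were low too, and with their median removed that fall was -0.29 (adjusted p = 0.0943), while the other 2 comparisons kept their calls (0.68 ± 0.11 and 0.97 ± 0.12).

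SHMT2, which supplies one-carbon units from serine, averaged 66.1 ± 3.81 FPKM in Fn14 KO, 50.02 ± 2.61 FPKM in Fn14alpha KO, 64.43 ± 2.54 FPKM with TWEAK and 62.03 ± 1.89 FPKM in WT. Its rise in Fn14 KO was 0.21 ± 0.06 (adjusted p = 0.00517), and 0.09 (adjusted p = 0.199) when libraries were scaled by their totals. Its fall in Fn14alpha KO, -0.34 ± 0.06 (adjusted p = 6.59e-05), turned to 0.11 (adjusted p = 0.129) with the chromosome 12 neighbours removed. MTHFD2, a dehydrogenase of the same pathway, averaged 10.6 to 12.08 FPKM over the groups and was called in no comparison, but was 0.32 ± 0.06 higher in Fn14 KO than in WT with its chromosome 2 neighbours removed (adjusted p = 0.000239), and 0.35 ± 0.06 higher than in Fn14alpha KO (adjusted p = 7.01e-05).

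The transsulfuration enzyme CBS (ENSG00000160200, chr21:43053191-43076943, minus strand), which makes cystathionine from homocysteine and serine, had 15 to 102 reads per library and the largest fold change of the enzymes against WT. It stood at 0.51, 0.92, 0.79 and 0.67 FPKM in Fn14 KO, 0.57, 0.4, 0.32 and 0.49 FPKM in Fn14alpha KO, 0.35, 0.25, 0.14 and 0.4 FPKM with TWEAK, and 0.25, 0.18, 0.35 and 0.29 FPKM in WT. Fn14 KO lay above WT in all libraries but overlapped Fn14alpha KO. CBS had a log2 fold change of 1.54 ± 0.26 in Fn14 KO (adjusted p = 1.87e-05) and 0.85 ± 0.24 between the knockouts (adjusted p = 0.00408). The Fn14alpha KO call, 0.69 ± 0.27 with adjusted p = 0.0439, was lost under 11 of 26 alternatives, among them without 1 of 7 libraries, with adjusted p up to 0.149. CTH, the next enzyme, had 10 to 47 reads per library and no call.

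ASNS, asparagine synthetase and the standard ATF4 target, was hardly expressed in these cells. It had 17 to 38 reads per library and averaged 0.45 ± 0.03 FPKM in Fn14 KO, 0.38 ± 0.03 FPKM in Fn14alpha KO, 0.36 ± 0.12 FPKM with TWEAK and 0.33 ± 0.05 FPKM in WT. The rise in Fn14 KO, 0.57 ± 0.22 (adjusted p = 0.0298), was lost on leaving out WT replicate 2 (0.51, adjusted p = 0.0795), WT replicate 3 (0.50, 0.0794), Fn14 KO replicate 1 (0.55, 0.0537), Fn14 KO replicate 3 (0.54, 0.0627) or Fn14 KO replicate 4 (0.56, 0.053). PCK2, the mitochondrial phosphoenolpyruvate carboxykinase, averaged 8.21 FPKM in Fn14 KO, 8.77 FPKM in Fn14alpha KO, 6.76 FPKM with TWEAK and 8.13 FPKM in WT, with no call.

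Of the carriers, the shared heavy chain SLC3A2 averaged 32.8 ± 5.08 FPKM in Fn14 KO, 21.79 ± 1.65 FPKM in Fn14alpha KO, 21.23 ± 1.496 FPKM with TWEAK and 22.59 ± 1.39 FPKM in WT. It rose in Fn14 KO alone among the comparisons with WT, by 0.66 ± 0.09 (adjusted p = 9.87e-07), and by 0.44 ± 0.08 with its neighbours removed (adjusted p = 6.75e-05). The rise was called under all 26 alternatives, at 0.44 to 0.72. The light chains of SLC3A2 differed from it. SLC7A5, which carries large neutral amino acids, averaged 23.93 ± 1.54 FPKM in Fn14 KO, 30.71 ± 1.22 FPKM in Fn14alpha KO, 20.62 ± 2.66 FPKM with TWEAK and 18.63 ± 2.82 FPKM in WT, and rose in both knockouts (0.48 ± 0.09, adjusted p = 0.000133, and 0.69 ± 0.09, adjusted p = 2.12e-06). Both rises were called under all 26 alternatives, at 0.36 to 0.79 in Fn14 KO and 0.59 to 0.73 in Fn14alpha KO. Between the knockouts the SLC7A5 difference was -0.21 (adjusted p = 0.0542) and did not pass. It passed as lower in Fn14 KO under 12 of 26 alternatives, among them DESeq2, and turned to 0.18 under 1. SLC7A11, the cystine importer, averaged 0.87 ± 0.05 FPKM in Fn14 KO, 1.28 ± 0.16 FPKM in Fn14alpha KO, 0.77 ± 0.21 FPKM with TWEAK and 1.04 ± 0.10 FPKM in WT. It was lower in Fn14 KO than in Fn14alpha KO by -0.41 ± 0.14 on the log2 scale (adjusted p = 0.0121), and by -0.34 without Fn14alpha KO replicate 4 (adjusted p = 0.0524). With its neighbours removed it was also called higher in Fn14alpha KO than in WT (0.53 ± 0.12, adjusted p = 0.0019).

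XPOT, the nuclear exporter of tRNA, averaged 30.36 ± 3.54 FPKM in Fn14 KO, 18.75 ± 1.39 FPKM in Fn14alpha KO, 27.28 ± 1.61 FPKM with TWEAK and 26.85 ± 1.07 FPKM in WT. Against WT it rose in Fn14 KO by 0.29 ± 0.07 (adjusted p = 0.00162), a call lost in both limma fits to FPKM (0.17, adjusted p = 0.0717 and 0.0711). In Fn14alpha KO it fell by 0.55 ± 0.07 on the log2 scale (adjusted p = 1.87e-06), but the value was -0.08 (adjusted p = 0.357) with its chromosome 12 neighbours removed.

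Of the 5 stress outputs, 4 rose in Fn14 KO. DDIT4 (ENSG00000168209, chr10:72273919-72276036, plus strand), an inhibitor of mTORC1, stood at 28.69, 22.0, 24.19 and 23.73 FPKM in Fn14 KO, 13.27, 15.43, 16.8 and 16.01 FPKM in Fn14alpha KO, 5.18, 6.61, 5.75 and 7.86 FPKM with TWEAK, and 9.82, 9.48, 9.77 and 9.64 FPKM in WT. The 4 groups did not overlap. The log2 fold change against WT was 1.47 ± 0.10 in Fn14 KO (adjusted p = 2.22e-11), 0.64 ± 0.11 in Fn14alpha KO (adjusted p = 2.95e-05) and -0.55 ± 0.11 with TWEAK (adjusted p = 0.00193). The values were 1.48, 0.61 and -0.56 with the neighbouring-gene median removed.

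CHAC1 (ENSG00000128965, chr15:40952962-40956512, plus strand), which degrades glutathione and has a C/EBP-ATF element before a RefSeq start, rose in Fn14 KO only among the comparisons with WT. It stood at 6.4, 5.79, 6.37 and 5.48 FPKM in Fn14 KO, 3.12, 3.12, 3.02 and 3.95 FPKM in Fn14alpha KO, 2.42, 3.2, 3.14 and 3.36 FPKM with TWEAK, and 3.28, 3.06, 2.99 and 3.52 FPKM in WT. The Fn14 KO libraries were above all others, and the other 3 groups overlapped. The log2 fold change was 1.02 ± 0.12 against WT (adjusted p = 9.12e-08) and 1.01 ± 0.12 against Fn14alpha KO (adjusted p = 8.87e-08), a test of the difference between the knockouts.

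STC2, a secreted glycoprotein, averaged 17.53 ± 0.26 FPKM in Fn14 KO, 16.78 ± 1.03 FPKM in Fn14alpha KO, 6.07 ± 0.52 FPKM with TWEAK and 10.39 ± 0.59 FPKM in WT. Like DDIT4 it was higher in both knockouts (0.87 ± 0.07, adjusted p = 1.77e-10, and 0.66 ± 0.07, adjusted p = 4.22e-08) and lower with TWEAK (-0.72 ± 0.07, adjusted p = 1.27e-07). DDIT4 and STC2 were the members called with TWEAK, so 0 of 37 were higher and 2 lower (0% and 5.41%), against 4.82% and 2.05% of all genes. In a fit of the TWEAK and WT libraries alone 0 members were called higher and 4 lower, where all genes counted 857 and 387.

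SESN2, a leucine sensor upstream of mTORC1, went the other way in both knockouts. It averaged 3.06 ± 0.43 FPKM in Fn14 KO, 3.53 ± 0.12 FPKM in Fn14alpha KO, 5.07 ± 0.51 FPKM with TWEAK and 5.18 ± 0.85 FPKM in WT (log2 fold change -0.65 ± 0.12, adjusted p = 6.14e-05, and -0.59 ± 0.12, adjusted p = 0.000255). VLDLR, a lipoprotein receptor, was at 0.18 to 0.38 FPKM in every library. It stood 0.92 ± 0.16 higher in Fn14 KO than in Fn14alpha KO (adjusted p = 2.02e-05). Its rise against WT, 0.41 ± 0.15 (adjusted p = 0.0241), was lost without WT replicate 4 (0.31, adjusted p = 0.0893), Fn14 KO replicate 3 (0.36, 0.0728) or Fn14 KO replicate 4 (0.35, 0.0749), and its fall in Fn14alpha KO, -0.52 ± 0.16 (adjusted p = 0.0117), without WT replicate 1 (-0.42, adjusted p = 0.0513).

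The ER chaperones divided within themselves in Fn14 KO. HSPA5, HSP90B1, PDIA4, PDIA6 and HYOU1 were lower than in WT, and MANF, SDF2L1 and CRELD2, which ER stress also induces, were higher. DNAJB9, a co-chaperone of HSPA5, averaged 6.86 to 7.75 FPKM over the groups and was called in no comparison. With the neighbouring-gene median removed, 5 of the 9 were called lower and 0 higher, against 23.9% and 18.9% of all genes in that fit.

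HYOU1 (ENSG00000149428, chr11:119044188-119057227, minus strand), the nucleotide exchange factor of HSPA5, had the largest change of the 9 between the knockouts. It stood at 29.76, 33.32, 34.54 and 33.1 FPKM in Fn14 KO, 79.69, 76.3, 76.5 and 76.08 FPKM in Fn14alpha KO, 56.09, 56.33, 58.21 and 56.51 FPKM with TWEAK, and 54.72, 56.79, 56.91 and 52.45 FPKM in WT. Neither knockout overlapped WT, and they lay on opposite sides of it. The log2 fold change was -0.64 ± 0.06 in Fn14 KO (adjusted p = 1.23e-09), 0.45 ± 0.06 in Fn14alpha KO (adjusted p = 6.14e-07) and -1.09 ± 0.06 between them (adjusted p = 7.06e-14), and -0.60, 0.34 and -0.94 with the neighbouring-gene median removed.

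The disulfide isomerases PDIA4 and PDIA6 changed in the same directions as HYOU1. PDIA6, with an ER stress response element before a RefSeq start inside the gene, averaged 53.71 ± 1.79 FPKM in Fn14 KO, 105.9 ± 5.84 FPKM in Fn14alpha KO, 76.23 ± 2.24 FPKM with TWEAK and 82.88 ± 6.21 FPKM in WT (log2 fold change -0.51 ± 0.06, adjusted p = 2.41e-07, in Fn14 KO and 0.32 ± 0.06, adjusted p = 0.000185, in Fn14alpha KO). On chromosome 2 the neighbours were low in Fn14 KO, and without them that value was -0.16 ± 0.06 (adjusted p = 0.0281). PDIA4 averaged 106.4 ± 3.11 FPKM in Fn14 KO, 174.9 ± 6.20 FPKM in Fn14alpha KO, 147.4 ± 3.76 FPKM with TWEAK and 152.3 ± 2.29 FPKM in WT (-0.40 ± 0.05, adjusted p = 7.53e-07, and 0.17 ± 0.05, adjusted p = 0.0128). The PDIA4 call in Fn14alpha KO was lost when every gene with at least 1 count was tested (0.16, adjusted p = 0.115). Between the knockouts the difference was -0.83 ± 0.06 for PDIA6 and -0.57 ± 0.05 for PDIA4 (adjusted p = 5.41e-11 and 2.21e-09). With the neighbouring-gene median removed the PDIA6 difference shrank to -0.33 and kept its call. The PDIA4 difference lay between -0.72 and -0.53 over all alternatives.

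HSPA5 (ENSG00000044574, chr9:125234853-125241382, minus strand), the central ER chaperone BiP, changed far less. It stood at 154.31, 143.15, 140.14 and 141.36 FPKM in Fn14 KO, 189.4, 173.01, 196.52 and 183.3 FPKM in Fn14alpha KO, 181.02, 171.74, 158.31 and 157.07 FPKM with TWEAK, and 168.42, 172.04, 177.62 and 201.97 FPKM in WT. The Fn14 KO libraries were below all others, and the other groups overlapped. The log2 fold change was -0.20 ± 0.07 in Fn14 KO against WT (adjusted p = 0.0202). The call was lost when WT replicate 4 was left out (-0.13, adjusted p = 0.0903), as without Fn14 KO replicate 2 (-0.19, adjusted p = 0.0504) or Fn14 KO replicate 3 (-0.19, adjusted p = 0.0543). Against Fn14alpha KO it was -0.21 ± 0.07 (adjusted p = 0.0133). It was 0.01 ± 0.07 in Fn14alpha KO (adjusted p = 0.92), but 0.37 ± 0.07 (adjusted p = 0.000372) with its chromosome 9 neighbours removed, and -0.05 ± 0.07 with TWEAK (adjusted p = 0.734).

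HSP90B1, the ER form of HSP90, averaged 83.31 ± 6.54 FPKM in Fn14 KO, 97.63 ± 8.67 FPKM in Fn14alpha KO, 98.45 ± 9.61 FPKM with TWEAK and 111.5 ± 12.9 FPKM in WT. It was lower in Fn14 KO (-0.31 ± 0.09, adjusted p = 0.0047). The call in Fn14alpha KO, -0.23 ± 0.09 with adjusted p = 0.0393, was lost without WT replicate 4 (-0.13, adjusted p = 0.188), Fn14alpha KO replicate 2 (-0.17, adjusted p = 0.149) or Fn14alpha KO replicate 4 (-0.22, adjusted p = 0.0804). With the chromosome 12 neighbours removed it was called higher, at 0.28 ± 0.08, adjusted p = 0.00742.

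The 3 chaperone-list genes that were higher in Fn14 KO lie on chromosomes 3 and 22. MANF, a small ER-resident secreted factor, averaged 100.4 ± 17.0 FPKM in Fn14 KO, 88.47 ± 3.87 FPKM in Fn14alpha KO, 60.86 ± 4.49 FPKM with TWEAK and 71.73 ± 8.89 FPKM in WT. SDF2L1, a partner of ER DnaJ proteins, averaged 28.11 ± 12.1 FPKM in Fn14 KO, 18.08 ± 3.03 FPKM in Fn14alpha KO, 12.71 ± 0.78 FPKM with TWEAK and 17.49 ± 2.62 FPKM in WT. CRELD2, an ER-resident protein that stress induces, averaged 11.88 ± 2.96 FPKM in Fn14 KO, 11.87 ± 0.84 FPKM in Fn14alpha KO, 8.77 ± 0.70 FPKM with TWEAK and 10.47 ± 0.88 FPKM in WT. Fn14 KO replicate 1 was the highest Fn14 KO library for all 3, at 125.47, 45.88 and 16.29 FPKM.

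Against WT the Fn14 KO values were 0.60 ± 0.10 for MANF (adjusted p = 1.85e-05), 0.80 ± 0.20 for SDF2L1 (adjusted p = 0.00267) and 0.30 ± 0.12 for CRELD2 (adjusted p = 0.0394). Without the 2 libraries that stood apart they were 0.57, 0.58 and 0.17, of which the CRELD2 value did not pass (adjusted p = 0.0527). Without Fn14 KO replicate 1 the CRELD2 value was 0.10 (adjusted p = 0.277), and it was also lost without WT replicate 1, 2 or 3 (0.26 to 0.28). With the neighbouring-gene median removed all 3 calls ended, at 0.04 for MANF (adjusted p = 0.725), 0.25 for SDF2L1 (adjusted p = 0.3) and -0.10 for CRELD2 (adjusted p = 0.516).

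**Figure D4:**
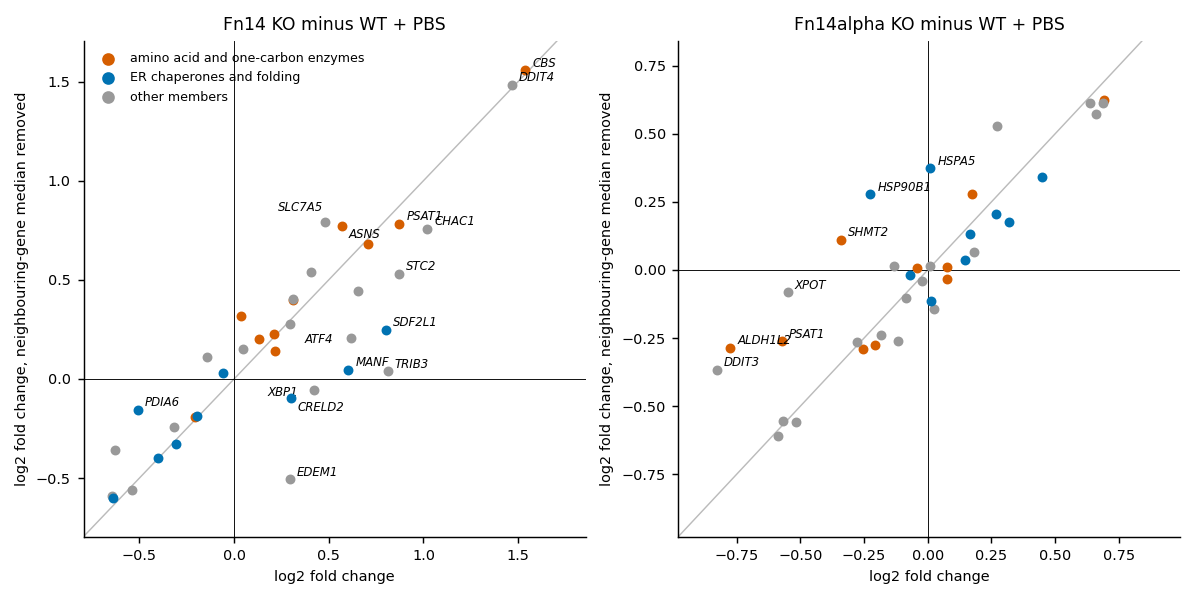
Log2 fold change of each of the 37 members (x axis) against the value after the running median of neighbouring genes was removed (y axis), for Fn14 KO (left panel) and Fn14alpha KO (right panel), each against WT. Orange points are amino acid and one-carbon enzymes, blue points chaperones, and the grey diagonal marks equal values. TRIB3 (0.81 and 0.04), MANF (0.60 and 0.04) and EDEM1 (0.29 and -0.51) lie far below the diagonal in Fn14 KO, and HSP90B1 (-0.23 and 0.28) far above it in Fn14alpha KO.

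The degradation genes were mixed. SEL1L, the scaffold of the HRD1 ubiquitin ligase, averaged 10.57 ± 1.14 FPKM in Fn14 KO, 16.56 ± 1.27 FPKM in Fn14alpha KO, 17.51 ± 0.57 FPKM with TWEAK and 17.75 ± 0.88 FPKM in WT, and fell in Fn14 KO by 0.63 ± 0.07 on the log2 scale (adjusted p = 7.65e-08; -0.36 ± 0.07 and adjusted p = 0.000136 with neighbours removed). HERPUD1, a membrane partner of that ligase, averaged 14.09 ± 0.13 FPKM in Fn14 KO, 12.42 ± 0.97 FPKM in Fn14alpha KO, 12.38 ± 0.45 FPKM with TWEAK and 12.34 ± 0.32 FPKM in WT, a rise of 0.31 ± 0.06 in Fn14 KO (adjusted p = 0.000263). EDEM1, a lectin that selects glycoproteins for degradation, averaged 15.18 ± 1.01 FPKM in Fn14 KO, 11.34 ± 0.54 FPKM in Fn14alpha KO, 13.66 ± 0.46 FPKM with TWEAK and 13.44 ± 1.04 FPKM in WT. Its rise in Fn14 KO, 0.29 ± 0.06 (adjusted p = 0.000474), turned to -0.51 ± 0.06 (adjusted p = 1.08e-06) with its chromosome 3 neighbours removed.

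In Fn14alpha KO the members as a whole were called about as often as other genes. Of 37, 8 were higher and 10 lower (21.6% and 27.0%), against 20% and 22.2% of all genes, and the median of the members was -0.02 against 0.01. The 9 chaperones counted 4 higher and 1 lower. With the neighbouring-gene median removed they counted 5 higher and 0 lower, against 16.5% and 16.1% of all genes in that fit. The amino acid and one-carbon enzymes counted 1 higher and 3 lower, and 0 and 2 with the neighbouring-gene median removed, where the called genes were PSAT1 and PSPH. The called rise of MANF (0.27 ± 0.10, adjusted p = 0.0311) was lost without any 1 of 5 libraries, WT replicates 1, 2 and 3 and Fn14alpha KO replicates 2 and 3 (0.24 to 0.25). EDEM1 fell (-0.28 ± 0.07, adjusted p = 0.00135).

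Set directly against Fn14alpha KO, Fn14 KO had 19 members higher and 6 lower (51.4% and 16.2%), against 30.7% and 28.5% of all genes. Among the genes of at least 2 log2 CPM the shares were 37.1% and 27.9%. Members counted 15 higher and 9 lower with libraries scaled by their totals, where all genes counted 3666 and 6166. They counted 14 and 8 with the neighbouring-gene median removed (37.8% and 21.6%, against 21.5% and 27.0% of all genes). The enzymes counted 5 higher and 0 lower, PSAT1, PHGDH, SHMT2, ALDH1L2 and CBS, and the chaperones 2 higher, MANF and SDF2L1, and 4 lower, HSPA5, PDIA4, PDIA6 and HYOU1. With the neighbouring-gene median removed the chaperones counted 0 higher and 5 lower and the enzymes 5 and 0, with MTHFD2 called in place of SHMT2.

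Other genes of these pathways, listed by function, were counted in the same edgeR fit. Their values and counts, here and for the lists below, are given without removal of the neighbouring-gene median. They may therefore carry the shifts of whole chromosomes, which ended or turned the calls of several members. The 21 other ATF4 pathway genes tested counted 8 higher and 7 lower in Fn14 KO than in WT (38.1% and 33.3%, against 26.6% and 26.3% of all genes), with a median of -0.02. PYCR1, which makes proline, averaged 28.34 FPKM in Fn14 KO and 13.04 FPKM in WT (1.24 ± 0.08, adjusted p = 1.44e-12). GDF15, a stress-induced cytokine, averaged 0.40 FPKM in Fn14 KO and 4.2 FPKM in WT (-3.27 ± 0.20, adjusted p = 2.09e-12), and ATF5, a related transcription factor, 12.47 FPKM in Fn14 KO and 27.13 FPKM in WT (-1.004 ± 0.07, adjusted p = 2.61e-11). In Fn14alpha KO 4 were higher and 4 lower (19% each, against 20% and 22.2% of all genes), led by NIBAN1 (-1.88 ± 0.14), GDF15 (-1.50 ± 0.16) and PYCR1 (0.65 ± 0.08). Between the knockouts 7 were higher and 8 lower in Fn14 KO (33.3% and 38.1%, against 30.7% and 28.5%), led by TXNIP (1.13 ± 0.06), ATF5 (-1.09 ± 0.07) and NIBAN1 (1.91 ± 0.14).

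With TWEAK 4 of these 21 were higher and 1 lower (19% and 4.76%, against 4.82% and 2.05% of all genes). NIBAN1, a stress-responsive protein, averaged 3.82 FPKM with TWEAK and 1.94 FPKM in WT (1.04 ± 0.11, adjusted p = 2.82e-07). SLC1A5, the glutamine carrier, averaged 48.18 FPKM with TWEAK and 37.88 FPKM in WT (0.41 ± 0.07, adjusted p = 0.000277), and TXNIP, the thioredoxin inhibitor, 14.64 FPKM with TWEAK and 18.66 FPKM in WT (-0.29 ± 0.06, adjusted p = 0.00304).

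The 20 cytosolic aminoacyl-tRNA synthetases, several of which ATF4 induces, had small changes. Against WT, 9 were higher and 2 lower in Fn14 KO (45% and 10%, against 26.6% and 26.3% of all genes; median 0.08). In Fn14alpha KO 2 were higher and 8 lower (10% and 40%, against 20% and 22.2%; median -0.10), and with TWEAK edgeR called 0. Between the knockouts 10 were higher and 3 lower in Fn14 KO (50% and 15%, against 30.7% and 28.5%). QARS1 was among the 9, at 44.99 FPKM in Fn14 KO and 33.69 FPKM in WT (0.53 ± 0.06, adjusted p = 1.53e-07), and IARS1 among the 8, at 7.71 FPKM in Fn14alpha KO and 10.79 FPKM in WT (-0.52 ± 0.07, adjusted p = 7.28e-07). VARS1 was among the 2 that were higher in Fn14alpha KO, at 33.58 FPKM in Fn14alpha KO and 22.12 FPKM in WT (0.57 ± 0.06, adjusted p = 6.92e-08).

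The 30 other unfolded protein response genes counted 11 higher and 8 lower in Fn14 KO (36.7% and 26.7%, against 26.6% and 26.3% of all genes; median 0.11) and 6 and 5 in Fn14alpha KO (20% and 16.7%, against 20% and 22.2%). They counted 2 and 0 with TWEAK (6.67% and 0%, against 4.82% and 2.05%) and 13 and 9 in Fn14 KO against Fn14alpha KO (43.3% and 30%, against 30.7% and 28.5%). Several of these shares are near those of all genes. Among genes of at least 2 log2 CPM the shares in Fn14 KO against WT were 31.7% and 25.6%. In Fn14 KO against WT the chaperones HSPA13 (0.87 ± 0.08, adjusted p = 1.49e-09) and CANX (0.52 ± 0.06, adjusted p = 6.11e-08) rose, and SEC24D, a coat protein of ER export vesicles, fell by 0.79 ± 0.09 on the log2 scale (adjusted p = 1.04e-07). In Fn14alpha KO against WT the ERAD lectin OS9 was lower (-0.65 ± 0.06, adjusted p = 1.52e-08) and the disulfide isomerase TXNDC5 higher (0.66 ± 0.14, adjusted p = 0.000858). With TWEAK, ERN1, which encodes IRE1, was higher at 1.63 FPKM against 1.19 FPKM in WT (0.51 ± 0.10, adjusted p = 0.00213), as was DERL1, a channel component of ER-associated degradation (0.28 ± 0.07, adjusted p = 0.0102).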

How the data were processed

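Per the file headers, the authors deposited a count per gene and an FPKM value per gene for each of 16 libraries, with symbol and coordinates. The submitters' processing notes name HTSeq 0.6.1, HISAT2 2.0.1, cutadapt 1.9.1, FastQC 0.10.1 and DESeq2, and the builds GRCh38.p13 and hg38, with no roles. The sources used here do not state if counting used strand.

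From the counts, 16029 of 61806 genes passed edgeR's filterByExpr by group. edgeR 4.0.16 (R 4.3.3) quasi-likelihood tests, robust, with TMM scaling and 1 mean per group over all 16 libraries, gave 4 comparisons, two-sided, with Benjamini-Hochberg adjustment over all genes tested and a threshold of 0.05. The deposited FPKM values give the levels in the text. They are scaled to library totals and the fold changes to TMM: with totals the median over all genes shifted to -0.12 in Fn14 KO against WT and -0.15 against Fn14alpha KO. Means carry the SD over 4 libraries, which the labels call biological replicates, and p-values rest on the spread among them, and the depth limits the precision of the genes with few reads. In bulk RNA, fewer cells of a kind and less RNA per cell cannot be told apart.

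Replicate numbers did not pair libraries: correlations of deviations between equally numbered libraries ran from -0.523 to 0.292. No libraries of a group agreed within sampling noise (chi-square per degree of freedom 2.3 to 39). The fits were tested on simulated data. Alternatives were DESeq2 1.42.0, other scalings, no filter, limma 3.58.1 on log2(FPKM + 0.1) and log2(FPKM + 1), 2 groups only, the replicate block, removal of the neighbouring-gene median, and libraries left out.

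The members and lists were chosen with earlier results of these data known, so counts over them describe these genes and support no claim about the lists. Every member is named by its group levels. Values in every library are given for called members whose log2 fold change reached 1 in size in any comparison and for ATF4, DDIT3, XBP1 and HSPA5. Of the other pathway lists, named genes come from the 3 called genes with the smallest adjusted p per comparison. Cell type markers were used as a check only. RefSeq windows start 250 bases before a gene's start.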

Additional observations from a re-analysis of the deposited data

Results flagged for a closer look

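In 148 sets of 4 libraries (37 members in 4 groups) and in the per-library list means, 1 library stood far from the other 3 in 19 cases. Chance gives about 1 such set in 20, but the sets share the same 16 libraries and are not independent. WT replicate 4 accounted for 6: it was low for SLC7A5 (14.43 FPKM, against 19.68 to 20.46), and high for HSP90B1 (130.88, against 104.99 to 105.19), DNAJB9 (8.9, against 7.28 to 7.43), MANF (85.01, against 66.55 to 68.39), SDF2L1 (21.4, against 15.94 to 16.54) and the mean log2 CPM of the chaperones (7.71, against 7.47 to 7.49). That mean includes HSP90B1, DNAJB9, MANF and SDF2L1, so it is not a separate case.

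Fn14 KO replicate 1 was high for XBP1 (37.8 FPKM, against 31.96 to 32.29) and CRELD2 (16.29, against 9.93 to 10.73), and Fn14 KO replicate 4 was low for TRIB3 (14.55, against 17.51 to 17.57). Among the Fn14alpha KO libraries, replicate 1 was low for ATF4 (95.15 FPKM, against 103.43 to 104.3) and PSPH (3.69, against 4.34 to 4.41) and high for HYOU1 (79.69, against 76.08 to 76.5), replicate 3 was low for ALDH1L2 (1.03, against 1.29 to 1.34), and replicate 4 was high for CHAC1 (3.95, against 3.02 to 3.12). Among the TWEAK libraries, replicate 2 was high for ALDH1L2 (2.31 FPKM, against 2.02 to 2.05), replicate 3 was high for SLC7A11 (1.08, against 0.62 to 0.69) and low for MANF (54.14, against 62.78 to 63.48), and replicate 4 was high for DNAJB9 (8.15, against 7.56 to 7.66) and low for SEL1L (16.66, against 17.75 to 17.88).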

How the results depend on the processing

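Of 74 called results of members, 46 kept their direction and call under all 26 alternatives, 28 lost the call or turned in at least 1, and 9 turned direction, each of these with the neighbouring-gene median removed. Of 74 results that were not called, 20 passed under at least 1, among them, without the 2 libraries that stood apart, XBP1, PHGDH and CRELD2 in Fn14alpha KO against WT and SLC7A5 between the knockouts. The turned values were 0.11 for SHMT2 and 0.28 for HSP90B1 in Fn14alpha KO against WT; -0.0566 for XBP1, -0.10 for CRELD2 and -0.51 for EDEM1 in Fn14 KO against WT; and -0.12 for XBP1, -0.045 for STC2, -0.16 for MANF, -0.24 for EDEM1 and, not called before, -0.19 for DDIT3 in Fn14 KO against Fn14alpha KO. Near 0 and not called, ATF4 with TWEAK was -0.00698 with library totals and -0.000748 and -0.000788 in the limma fits to FPKM, HSPA5 in Fn14alpha KO was -0.000405 with every gene of at least 1 count kept and ranged from -0.0244 to 0.0754 over libraries left out, and with TWEAK DDIT3 was 0.0427 and HSPA5 0.0145 without the 2 libraries that stood apart, and 0.0435 and 0.0145 without WT replicate 4.

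With TWEAK, members called numbered 2, but 4 with only the 2 groups compared and 2 to 5 over libraries left out. All genes counted 773 higher and 328 lower, and 857 and 387 with only the 2 groups compared. The count of 5 came without Fn14 KO replicate 1, with 0% of members higher and 13.5% lower. In that fit 6.41% of all genes were higher and 3.43% lower, against 4.82% and 2.05% with all libraries. The amino acid and one-carbon median minus the chaperone median was 0.46 in Fn14 KO against WT but 0.34 without the 2 libraries that stood apart, and 0.49 between the knockouts but 0.73 with the neighbouring-gene median removed. Scaling by library totals ended the calls of CEBPB, XBP1, STC2 and MANF between the knockouts, of ASNS, SHMT2, VLDLR and CRELD2 in Fn14 KO against WT and of HSP90B1 in Fn14alpha KO against WT, and moved the share of higher calls among all called genes in Fn14 KO against WT to 36.0%, against 50.2%. Equal replicate numbers did not pair the libraries (1 of 16 correlated best with its own number). With the replicate number as a block, 28 members were called in Fn14 KO against WT, against 29 without it. All genes then counted 4123 higher and 4082 lower, against 4256 and 4216 without it. The causes were not tested. The depth limits ASNS, CTH, CBS and VLDLR, whose libraries hold few reads.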
